A study of Ovis aries with 8 samples.

Results

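The interferon genes *MX1*, *MX2*, *IRF2* and *IRF3* were followed through 8 fetal sheep hypothalami. *MX1* and *MX2* are antiviral effectors, and *IRF2* and *IRF3* are transcriptional regulators. They were chosen as every non-control probe whose gene name or description on the array names one of these genes, which gave 5 of 15008 probes, and 4 of the 1022 gene names that could be given to probes. All 5 passed the filter on dim signal, as did 11748 probes in all. A sixth probe carried the letters MX1 only in the strain name of a choanoflagellate and was left out. The hypothalami came from 4 sets of twin fetuses, 1 array each. In each set 1 fetus received estradiol-3-sulfate, the sulfate conjugate of estradiol, from an implanted osmotic mini-pump (1 mg per day), through a catheter in the lateral cerebral ventricle. The other was the control, infused with saline vehicle according to the protocol and called untreated in the design text. Infusion lasted 7 to 12 days by the design text and 7 to 10 days by the protocol, and tissue was taken at 130 to 134 days of gestation. All fetuses of both groups had been catheterised, and no label gives sex or breed. Surgery was at 120 to 127 days of gestation, with day 125 given in the protocol. The hypothalamus was taken whole, so fewer cells of a type and less RNA per cell cannot be told apart.

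Interferons are secreted proteins that cells release on sensing viral nucleic acid. They bind receptors on neighbouring cells, and the JAK and STAT proteins below those receptors switch on a large set of induced genes. *MX1* and *MX2* belong to that set and encode dynamin-like GTPases that block the replication of viruses. IRF3 is a factor held in the cytoplasm until a sensor pathway phosphorylates it, after which it helps to switch on interferon genes. IRF2 competes with IRF1 for the same DNA sites and mostly represses them. Neurons, astrocytes and microglia of the brain can all respond to type I interferon.

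The probe sequences show what each value rests on, and are given as the array design lists them, from 5′ to 3′. The *IRF2* probe is printed whole, since it is the dimmest and its direction depended most on the processing. Of the *MX1* and *MX2* probes the last 30 bases are given, and capitals in the *MX2* probe mark AATAAA, the letters of the common polyadenylation signal. Of the *IRF3* probes the first 30 bases are given, and capitals mark bases that both probes share.
IRF2 probe: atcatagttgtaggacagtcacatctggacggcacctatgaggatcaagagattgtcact
MX1 probe: caatttgtaatacagttctttctaccagaa
MX2 probe: tataaacttcatattctAATAAAtcacttc
IRF3 first probe: TCCTTAAGGCTGTTTATCCGCCCGTGCAAG
IRF3 second probe: tgacccaagcacggggttattccTCCTTAA

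All 5 probes are 60 bases long. The *MX1* and *MX2* probes start at bases 2414 and 2794 of their design sequences, and both have a GC content of 35.0%, against a median of 43.3% over the array. AATAAA was found in 5.63% of all probes, read on the probe strand. The *IRF2* probe starts at base 522 and has a GC content of 45.0%. The *IRF3* probes start at bases 815 and 792 of an expressed sequence tag that the array design names *IRF3*, overlap by 37 bases and so are not independent measurements. Both have a GC content of 55.0%. In the RefSeq gene table for sheep (assembly ARS-UI_Ramb_v3.0), used for names and neighbours only, *MX1* and *MX2* lie on the same chromosome with 0 protein-coding genes between them.

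Signal differed between the arrays themselves. The 75th percentile of processed intensity ran from 1597 to 2282 in the treated group and from 981 to 1633 in the vehicle group, and 77.0% to 83.1% against 67.8% to 77.4% of probes were well above background. All arrays lay on 1 slide, the treated ones in its first column and the vehicle ones in its second, so an effect of slide position and one of treatment cannot be told apart. Of 11 hypothalamic neuron markers on the array, all were tested, and their summed level ran from 3.80 to 5.43 in treated and from 4.50 to 5.22 in vehicle fetuses. The brightest probes dominate that sum: before adjustment 4 of the 11 had a p under 0.05, of which 3 were higher and 1 lower, *AGRP* at 3.66, *GHRH* at 2.58, *NPY* at 1.61 and *NPVF* at -1.21 in log2 difference. *AGRP* and *GHRH* were each well above background in 2 of 4 vehicle fetuses, and the groups overlapped for *AGRP*, *GHRH* and *NPVF*. Levels here are log2 intensity relative to the 75th percentile of the array, and a level of 1 probe is not compared with that of another. No probe passed a Benjamini-Hochberg adjusted p of 0.05 in limma (0 of 11748, or 0%; smallest adjusted p 0.240). Before adjustment, 733 probes had a p under 0.05 and were higher after estradiol sulfate (6.24%), and 344 were lower (2.93%).

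Both effector genes had a lower mean after estradiol sulfate, and neither difference passed the adjusted threshold. In neither were the groups apart, which held for 2.68% of all tested probes in the lower direction. *MX1*, the interferon-induced GTPase, had levels of 0.08, 0.90, -0.0029 and 1.11 in treated fetuses 1 to 4. The vehicle fetuses had 0.45, 1.24, 0.65 and 1.64. Treated fetuses 1 and 3 lay below every control, while treated fetuses 2 and 4 lay among the controls, so the groups overlapped. The means were 0.52 ± 0.57 and 1.00 ± 0.54 (SD, n = 4 each). The log2 difference was -0.48 ± 0.33 (SE; 95% interval -1.22 to 0.27), which is 1.39-fold dimmer, with adjusted p = 0.712 in limma. *MX1* varied widely among fetuses of the same group. Its pooled SD of 0.55 stood at the 92.2 percentile of all probes tested and at the 96.4 percentile of probes of like signal, and the brightest fetus exceeded the dimmest 3.12-fold. The difference rested in part on single fetuses, being -0.26 without vehicle 4 and -0.30 without treated 3.

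*MX2*, the paralogous GTPase, had levels of 0.35, 0.10, 0.28 and 0.49 in treated fetuses 1 to 4. In vehicle fetuses 1 to 4 they were 1.03, 0.15, 0.83 and 0.60. Vehicle 1 and 3 were the highest of the 8, 1 treated fetus lay below every control, and the groups overlapped through vehicle 2. The means were 0.30 ± 0.17 and 0.65 ± 0.38 (SD, n = 4 each), a log2 difference of -0.35 ± 0.19 (SE; 95% interval -0.78 to 0.08), with adjusted p = 0.632 in limma. Without vehicle 1 the difference was -0.22. The fetuses high for one *MX* gene were not those high for the other. Across the 8 arrays the Pearson correlation of *MX1* with *MX2* was -0.05, and -0.41 once group means were removed. As with every correlation here, the points share 1 slide and include co-twins, and no test is given.

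Both regulator genes had a higher mean after estradiol sulfate, again with neither passing the adjusted threshold. *IRF2*, the competitor of IRF1, was the only 1 of the 4 genes whose groups did not overlap, which 3.29% of all tested probes showed in the higher direction. This held with scaling to the 75th percentile and with none of the 5 other scalings: 3 treated fetuses lay above every control with quantile normalization, median scaling, cyclic loess and the authors' log2 table, and 0 with normexp and quantile normalization. Its levels were -4.78, -4.74, -4.69 and -4.65 in treated fetuses 1 to 4. They were -4.95, -5.27, -4.81 and -5.45 in vehicle fetuses 1 to 4. The treated fetuses lay close together and all above the highest control, vehicle 3, and the spread came from the vehicle group. The means were -4.71 ± 0.058 and -5.12 ± 0.29 (SD, n = 4 each), a log2 difference of 0.41 ± 0.15 (SE; 95% interval 0.063 to 0.75), or 1.33-fold brighter, with adjusted p = 0.502 in limma. At this scaling it was the 1 gene of the 4 with an unadjusted p under 0.05, which 9.17% of all tested probes had. With median scaling and with the authors' log2 table both *IRF2* and *MX2* were under 0.05 before adjustment. There 1098 and 1104 of 11748 probes were, 753 and 760 of them lower, so probes in the direction of *MX2* prevailed. With the other 3 scalings none of the 4 genes was under 0.05. Of all probes 693 were with quantile normalization, 786 with cyclic loess and 750 with normexp.

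The *IRF2* probe lay at the 8.1 percentile of signal, among the dimmest of the 5 equal signal classes of tested probes. It was well above background in all 4 treated fetuses and in 2 of 4 vehicle fetuses, not in vehicle 2 and 4. Its processed intensity was 62.4, 77.6, 88.4 and 63.8 in treated fetuses 1 to 4, and 52.7, 38.9, 47.0 and 22.4 in vehicle fetuses 1 to 4. The 2 lowest intensities belong to the arrays where the probe was not well above background. Under normexp background correction with quantile normalization the *IRF2* difference was -0.0032 ± 0.084 (SE). That correction adds an offset of 50 to the intensity, which draws the log2 differences of so dim a probe toward 0. The value near 0 thus cannot tell no difference from a compressed one, and the direction is not settled. Quantile normalization of the processed intensity gave 0.22 ± 0.12 (SE). The *IRF2* level tracked the brightness of the array, with a Pearson correlation of 0.74 with the log2 75th percentile over 8 arrays. With normexp and quantile normalization that correlation was 0.07. The part of brightness in the group difference was not otherwise tested.

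*IRF3*, the latent factor activated by nucleic acid sensors, had levels at its first probe of -1.21, -1.79, -1.47 and -1.46 in treated fetuses 1 to 4. The vehicle fetuses had -1.56, -1.81, -1.72 and -1.99. Treated fetuses 1, 3 and 4 lay above every control, and treated 2 lay at the low end beside vehicle 2. The means were -1.48 ± 0.24 and -1.77 ± 0.18 (SD, n = 4 each), a log2 difference of 0.29 ± 0.15 (SE; 95% interval -0.058 to 0.63), or 1.22-fold brighter, with adjusted p = 0.622 in limma. The second *IRF3* probe differed by 0.23 ± 0.15 (SE; adjusted p = 0.692 in limma), with 2 treated fetuses above every control. The mean of *IRF3* was higher after estradiol sulfate under each scaling tried, by 0.18 to 0.29 at the first probe and 0.13 to 0.23 at the second. With median scaling and the authors' log2 table the second probe's difference of 0.13 was below its SE of 0.14. There 1 treated fetus lay below every control, as 1 did at the first probe with normexp and quantile normalization.

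**Figure D1:**
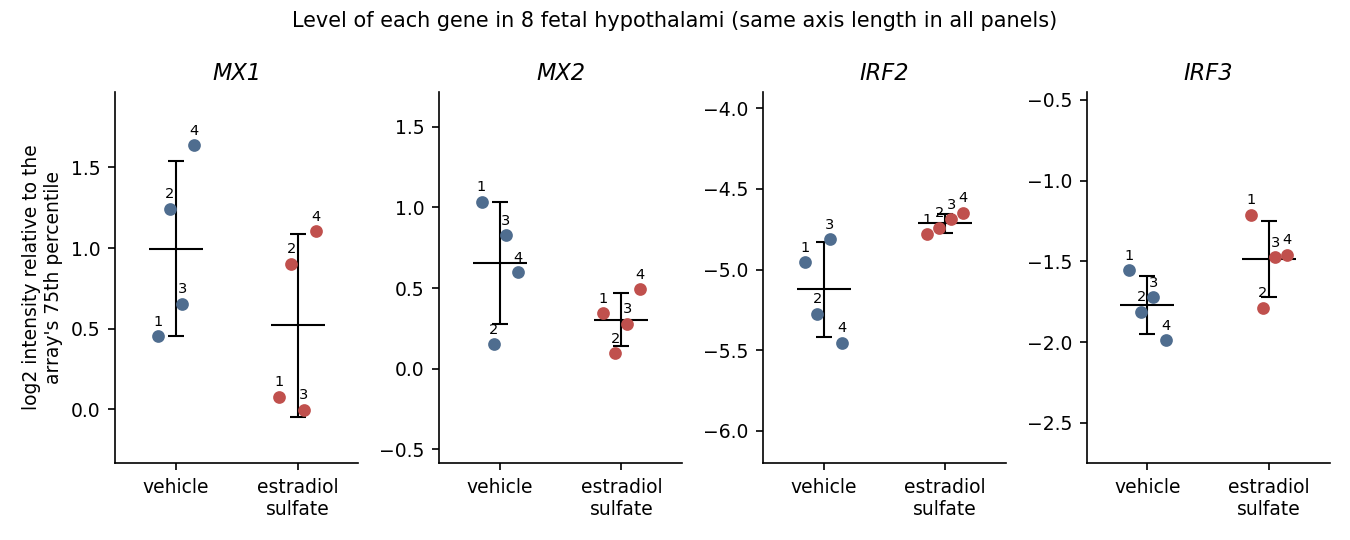
Level of each gene (y axis, log2 intensity relative to the array's 75th percentile) in the 4 vehicle and 4 estradiol sulfate fetuses; points are fetuses with their replicate number, black bars the group mean and whiskers the SD, and each panel's axis has the same length. *MX1* has the widest spread in both groups, and the *IRF2* groups do not overlap at this scaling, though they do at each of the 5 others tried.

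The direction of a probe's difference was related to its signal over the whole array. With the tested probes in 5 equal classes from dimmest to brightest, the median log2 difference was 0.20, 0.10, 0.06, 0.0059 and -0.12. Against these, the *IRF2* difference of 0.41 sat in a class with a median of 0.20 and the *IRF3* difference of 0.29 in a class with a median of 0.06. *MX1* and *MX2* both sat in the class second from the brightest, whose median was near 0. With normexp and quantile normalization the 5 medians lay between -0.0098 and 0.016, and the differences were -0.46 for *MX1*, -0.32 for *MX2* and 0.19 for *IRF3*, with *IRF2* near 0 as given above. Median scaling and the authors' own log2 table moved the median of all probes from 0.04 to -0.06. Relative to the median of all probes, the differences under those scalings were -0.52 for *MX1*, -0.39 for *MX2*, 0.37 for *IRF2* and 0.24 for *IRF3*, as under the 75th percentile. That sameness was fixed in advance, since these scalings differ only by a constant per array, which the subtraction of the median cancels.

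**Figure D2:**
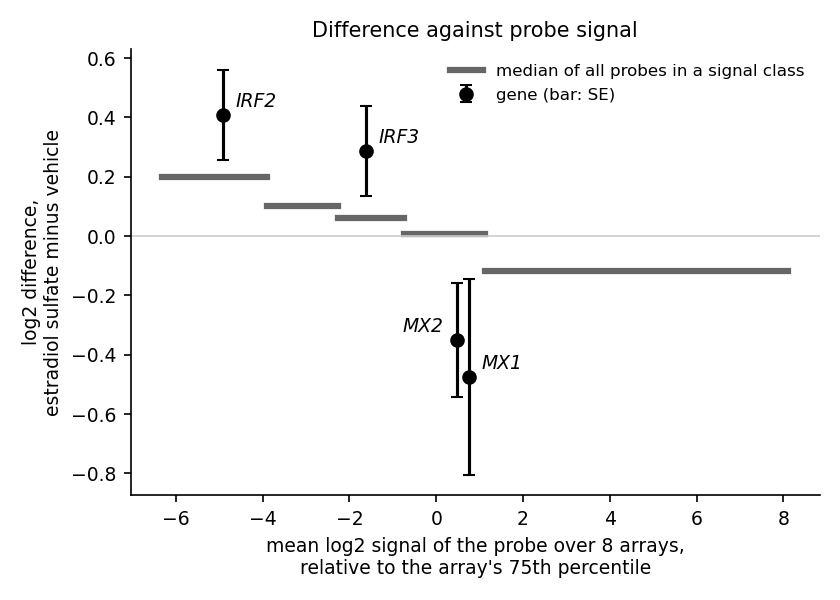
Log2 difference, estradiol sulfate minus vehicle (y axis), against the mean log2 signal of the probe over 8 arrays (x axis); points with SE bars are the 4 genes and grey lines the median difference of all tested probes in each of 5 signal classes. The median line falls from 0.20 in the dimmest class to -0.12 in the brightest, with *IRF2* in the dimmest and the *MX* genes second from the brightest.

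**Figure D3:**
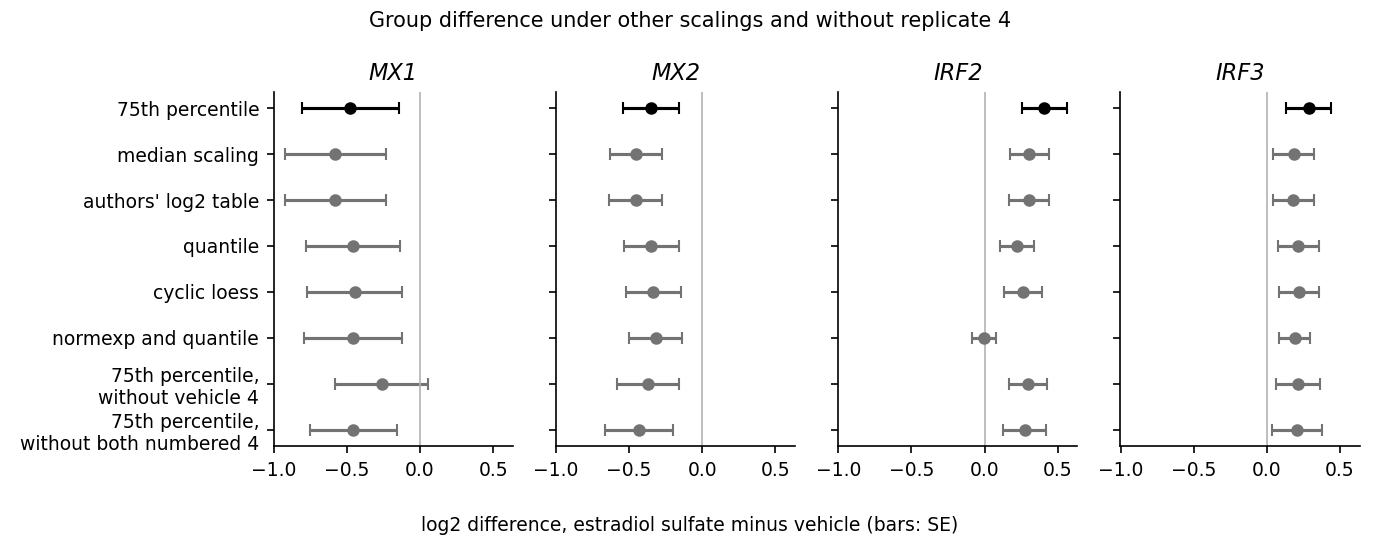
Log2 difference, estradiol sulfate minus vehicle (x axis, bars are SE), of each gene under 6 scalings, without vehicle 4 and without both fetuses numbered 4 (y axis). *MX1* and *MX2* stay below 0 and *IRF3* above 0 in each, while *IRF2* comes to -0.0032 under normexp and quantile normalization.

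Effectors were set against regulators in each fetus by centring each gene on its vehicle mean, averaging *MX1* with *MX2* and *IRF2* with *IRF3*, and taking the difference. Effectors minus regulators was -1.06, -0.51, -1.05 and -0.42 in treated fetuses 1 to 4. It was -0.27, -0.03, -0.26 and 0.57 in vehicle fetuses 1 to 4. All 4 treated fetuses lay below every control. The means were -0.76 ± 0.35 and 0 ± 0.39 (SD, n = 4 each), where 0 is set by the centring. The genes were grouped with their directions already known, so this is a description and carries no test.

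Treated 1 and 3 lay outside every control on both the effector and the regulator mean, treated 2 on the first alone and treated 4 on the second alone. The effector mean was -0.61, -0.33, -0.69 and -0.03 in treated fetuses 1 to 4, with 3 below every control and treated 4 level with the vehicle mean. The regulator mean was 0.45, 0.18, 0.36 and 0.39, with 3 above every control and treated 2 just below vehicle 1 at 0.19. Vehicle 4 stood at the opposite corner, with the highest effector mean (0.29) and the lowest regulator mean (-0.27). Under normexp and quantile normalization the contrast was -0.48 and the groups overlapped, the highest treated fetus at -0.06 and the lowest control at -0.16. They did not overlap with quantile normalization or cyclic loess, under which the highest treated fetus (-0.25 and -0.26) lay close to the lowest control (-0.18 and -0.24). Median scaling and the authors' log2 table cannot change the contrast, since it cancels a constant per array.

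**Figure D4:**
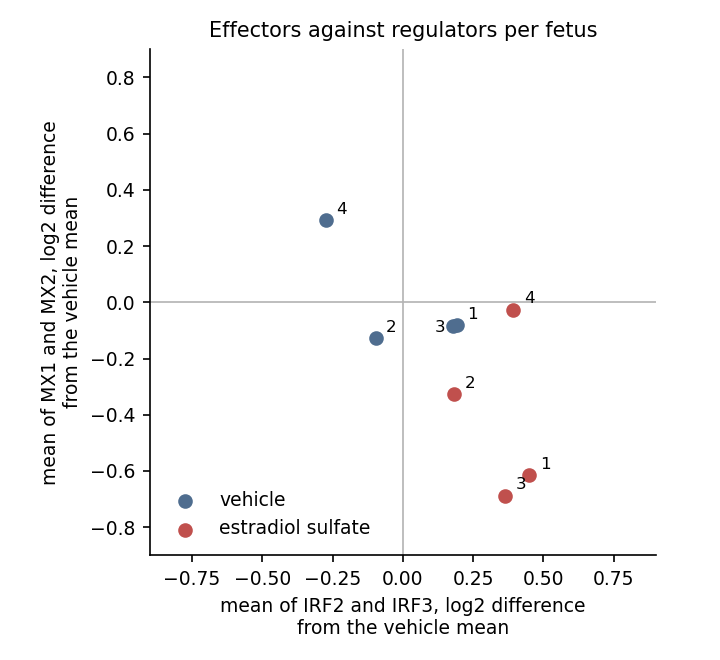
Mean of *MX1* and *MX2* (y axis) against mean of *IRF2* and *IRF3* (x axis) in each fetus, both as log2 difference from the vehicle mean; numbers are replicate numbers. Treated fetuses lie to the lower right, with treated 4 level with the vehicle mean on the y axis, and vehicle 4 lies alone at the upper left.

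Gene by gene, the effector that ran opposite to the regulators was *MX1*. Its Pearson correlation over the 8 arrays was -0.67 with *IRF2* and -0.79 with *IRF3*, and -0.57 and -0.73 within groups. *MX2* had correlations of -0.09 with *IRF2* and 0.0034 with *IRF3*, and within groups these were 0.62 and 0.55. The regulators had a correlation of 0.70 with each other, and 0.46 within groups. The correlations with the log2 75th percentile of the array were -0.69 for *MX1*, -0.46 for *MX2* and 0.55 for *IRF3*, so array brightness is shared by these points.

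*MX1* had its highest level in fetus 4 of each group, and so had several other interferon-induced genes. This was noted after the values were seen, and the labels do not say that equal numbers mark co-twins. *CXCL10*, an interferon-induced chemokine that attracts T cells, had levels of -4.76, -2.74, -2.34 and 0.13 in treated fetuses 1 to 4 and -3.83, -2.53, -3.18 and 0.39 in vehicle fetuses 1 to 4, a 35.7-fold range. *ISG15*, an interferon-induced ubiquitin-like protein, had 0.11, -0.20, -0.25 and 0.80 in treated fetuses and -0.97, 0.45, -0.35 and 1.37 in controls. *B2M*, the light chain of class I histocompatibility molecules, had 4.57, 4.49, 4.11 and 6.09 against 4.87, 4.44, 4.19 and 6.67. In each of these genes fetus 4 of both groups stood above the other 3 of its group. *PSMB8*, an immunoproteasome subunit, had -1.15 and -1.06 in the fetuses numbered 4 and between -2.73 and -2.56 in the other 6. Fetus 4 exceeded the mean of the other 3 of its group by 0.78 in treated and 0.85 in vehicle fetuses for *MX1*, by 3.41 and 3.57 for *CXCL10*, and by 1.70 and 2.17 for *B2M*. For *MX1* fetus 2 came second in both groups, at 0.90 against 1.11 in treated and 1.24 against 1.64 in vehicle fetuses. Fetuses 1 and 3 were lower, so fetus 4 stood less apart for *MX1* than for *B2M* or *PSMB8*.

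Fetus 4 was the highest of both groups in 10 of the 18 interferon pathway genes tested, among them *B2M*, *PSMB8*, *PSME2*, *IFNAR1*, *IFNAR2*, *CXCL10*, *ISG15* and *TLR3*. Over all probes the same held for 11.9% (1396 of 11734). No pathway gene had fetus 1, 2 or 3 highest in both groups. For fetus 4 the count was 11 with quantile normalization, and with normexp it was 9, where fetuses 1, 2 and 3 each had 1 gene. *MX2*, *IRF2* and *IRF3* did not follow. For *MX2* fetus 4 exceeded the mean of the others by 0.25 in the treated group and was below it by -0.08 in the vehicle group. For *IRF2* the values were 0.09 and -0.44, and for *IRF3* 0.03 and -0.29. *MX1* had correlations over 8 arrays of 0.74 with *CXCL10*, 0.72 with *ISG15* and 0.69 with *B2M*, whereas *MX2* had -0.05, -0.31 and 0.22.

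Of 9 leukocyte markers tested, 5 were also highest in fetus 4 of both groups, against 11.9% of all probes. Of 11 hypothalamic neuron markers tested 0 were, and of 4 endothelial markers tested 0 were. *CD3E*, a chain of the T cell receptor complex, had -1.75 in treated 4 and -0.49 in vehicle 4, against -3.90 to -2.91 and -3.93 to -2.38 in the other fetuses of each group, and *CD3D* was also highest in fetus 4 of both. Of 3 lymphocyte markers tested, 2 had this pattern, *CD5* being the exception, and *CD4* was not well above background on most arrays. The summed lymphocyte level was -0.91 in treated 4, within the treated range of -2.04 to -0.76, and -0.01 in vehicle 4, the highest of the vehicle range that began at -2.42. Of 6 microglial and myeloid markers tested, *CTSS*, *FCER1G* and *ITGB2* were highest in fetus 4 of both groups. *CD14*, *LYZ* and *ITGAM* were not, and *ITGAM* had its lowest level of all 8 in vehicle 4 (-5.53). The summed myeloid level was 3.02 in treated 4 and 2.94 in vehicle 4, against 2.10 to 2.53 in the other 6. The brightest probes dominate that sum too, here *CTSS*, *FCER1G* and *ITGB2*, so it adds little to what those genes show. Markers of neighbouring tissue followed too. *CGA*, the pituitary glycoprotein hormone alpha chain, had 0.55 in treated 4 and -0.34 in vehicle 4, against -4.55 to -0.12 and -5.46 to -2.83 in the others, and it was well above background in 2 of 4 vehicle fetuses. *TTR*, the choroid plexus marker, had 2.66 and -0.41, against -3.14 to 1.23 and -0.90 to -0.57. The pituitary markers *LHB* and *PRL* did not follow. The arrays of these fetuses were also the dimmest of their groups. The part of leukocytes, of neighbouring tissue or of array brightness in the levels of *MX1* was not tested. Without both fetuses numbered 4, an alternative chosen after seeing the data, the log2 differences were -0.46 ± 0.30 for *MX1*, -0.43 ± 0.23 for *MX2*, 0.28 ± 0.15 for *IRF2* and 0.21 ± 0.17 for *IRF3* (SE), with no probe past the adjusted threshold in limma and 1319 at an unadjusted p under 0.05.

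**Figure D5:**
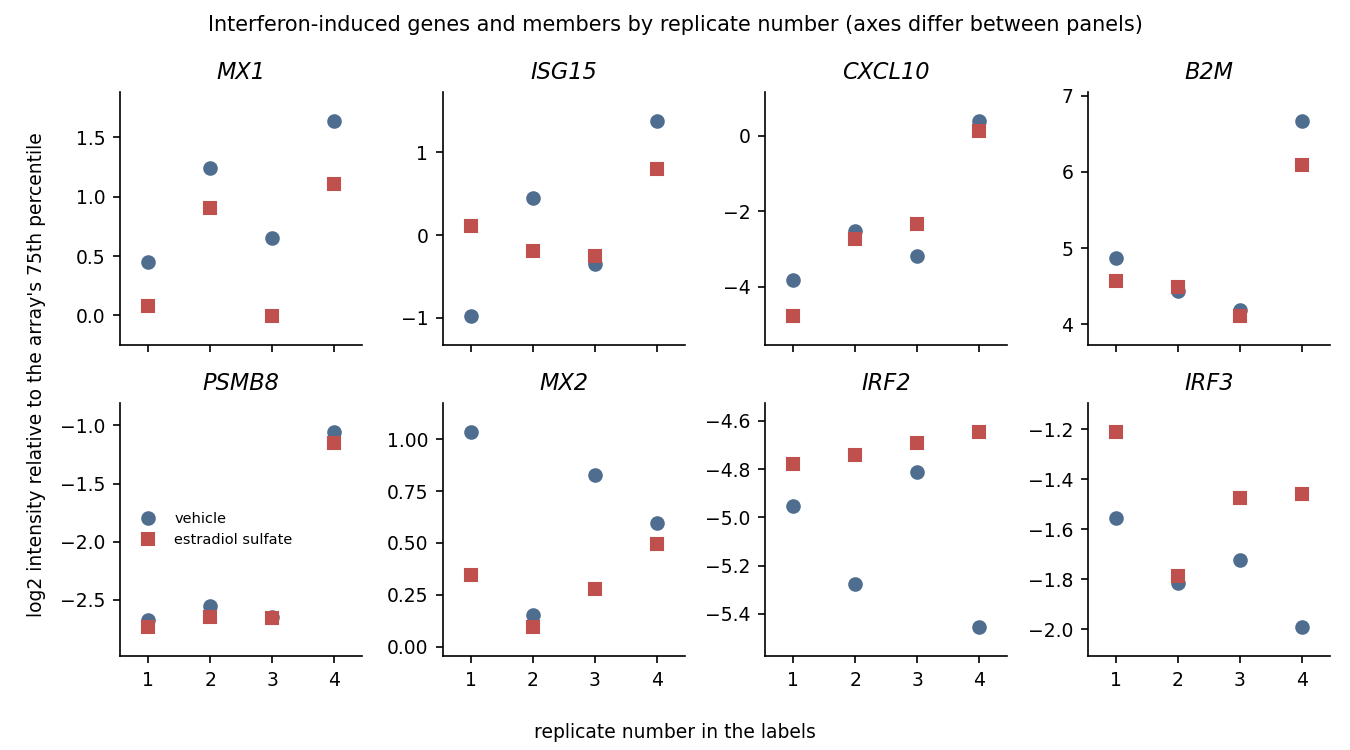
Level (y axis, log2 intensity relative to the array's 75th percentile; axes differ between panels) of *MX1*, other interferon-induced genes and the other 3 genes by replicate number (x axis) in vehicle (circles) and estradiol sulfate (squares) fetuses. Number 4 is highest in both groups for *MX1*, *ISG15*, *CXCL10*, *B2M* and *PSMB8*, and not for *MX2*, *IRF2* or *IRF3*.

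The rest of the interferon pathway gave no probe past the adjusted threshold between the groups. Of 150 genes on the pathway lists, 21 were on the array and 18 were tested, 7 above and 11 below 0, where 58.1% of all tested probes were above and 41.9% below. They had a median log2 difference of -0.01 against 0.04 over all probes. Among regulatory factors, *NFKBIA*, the inhibitor that holds NF-kappaB in the cytoplasm, was the 1 pathway gene of 18 with an unadjusted p under 0.05 and the 1 whose groups did not overlap, against 9.17% and 5.97% of all tested probes in either direction. Its levels were 1.30, 0.42, 0.25 and 0.11 in treated fetuses 1 to 4 and -0.23, -0.25, 0.07 and -0.24 in vehicle fetuses 1 to 4. All 4 treated fetuses were above every control, with treated 1 far above the rest. The difference was 0.68 ± 0.24 (SE), with adjusted p = 0.502 in limma. *IRF1*, the activator that shares DNA sites with IRF2, differed by 0.16 ± 0.29 (SE) and was well above background in 2 of 4 vehicle fetuses.

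Of 3 ligand and receptor genes tested, 1 was above and 2 below 0. The receptor chains *IFNAR1* and *IFNAR2* differed by -0.27 ± 0.17 and -0.09 ± 0.21 (SE). Outside the lists, and named after its value was seen, a probe for interferon-alpha 4, a type I ligand, differed by 0.58 ± 0.24 (SE; adjusted p = 0.538 in limma) and was well above background on 4 of 8 arrays. Of 5 sensors and adaptors 4 were above 0 and *TRAF3* was at -0.0080, with *TLR7*, a sensor of single-stranded RNA, at 0.10 ± 0.13 and the adaptor *MYD88* at 0.05 ± 0.14 (SE). The signal transducer *STAT5A* differed by -0.02 ± 0.17 (SE). Both other induced effectors were below 0, *CXCL10* at -0.14 ± 1.11 and *ISG15* at -0.01 ± 0.46 (SE), with errors far larger than the differences. All 4 antigen presentation genes were below 0 at the probe of highest mean signal, which stands for each gene here, among them *PSME2*, a proteasome activator subunit, at -0.15 ± 0.18 and *B2M* at -0.22 ± 0.58 (SE). Other tested probes of some genes went the other way, at 2.49 for the class II gene *OVAR-DQA1* (-0.08 at its brighter probe), 0.75 for *TRAF3* and 0.23 for *STAT5A*, so these directions depend on the probe. The mean of *MX1* was lower after estradiol sulfate by 0.48, without passing the adjusted threshold. The SEs of 1.11 for *CXCL10* and 0.46 for *ISG15* are too wide to say whether these genes went with it. Whether these differences differ from each other was not tested.

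The genes whose pattern over the 8 arrays was most like that of each gene came from 801 named genes compared by Pearson correlation. For *MX1* they were *PLIN2*, a lipid droplet coat protein, at 0.89, *SNAI3* at 0.88 and *MRPL32*, a mitochondrial ribosomal protein, at 0.87. For *MX2* they were *PLAUR*, the urokinase receptor, at 0.97, *MUC2* at 0.89 and *RPS2* at 0.81. For *IRF2* they were *ATF4*, a stress-response transcription factor, at 0.95, *PUS1* at 0.94 and *UBQLN1* at 0.92. For *IRF3* they were *SLCO2A1*, a prostaglandin transporter, at 0.92, *LALBA* at 0.92 and *MRCL3* at 0.91. None of these 12 genes was on the interferon pathway lists, but only 18 genes of those lists were tested, so their absence says little. *PLAUR*, *MUC2*, *UBQLN1* and *LALBA* lay in the dimmest of the 5 signal classes. The points share the slide, the brightness of the arrays and the co-twins.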

How the data were processed

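Per the file headers, 1-colour scans were read with Agilent Feature Extraction 10.1.1.1, and the deposited processed intensity is background-subtracted and not normalized between arrays. The authors' deposited log2 values differ from log2 intensity by 1 constant in each array (within 0.001, for 99.667% of probes or more). How that constant was set is not stated in the labels or headers. It served only as an alternative. Control and flagged spots were left out, each array's 75th percentile was subtracted from log2 intensity, and probes well above background on at least 4 of 8 arrays were kept (3260 removed). Names came from the array design and a RefSeq table, with 1656 probes named.

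The comparison used limma 3.58.1 under R 4.3.3 (eBayes after lmFit, two-sided, group as the only term, Benjamini-Hochberg adjustment over all probes tested, threshold 0.05). Each fetus was a replicate and p-values measure the spread between 4 fetuses a group, whose number limits precision. The labels do not say which fetuses were co-twins, so replicate numbers were not taken as pairs and the main fit ignores the twin pairing. Same-numbered fetuses had correlated deviations of 0.24, -0.01, 0.19 and 0.25, and fetuses of different numbers -0.36 to 0.21. These values do not exclude that equal numbers mark co-twins. Alternatives were other scalings, filters, a trended prior, a replicate block and leaving out fetuses. Genes, lists and rules were chosen with earlier results of these data known. Named were the 4 genes, the 2 genes of each pathway list with the smallest p, and the 3 genes most like each member. A gene that the rule names is not reported here. Other genes, shown for the fetuses numbered 4, and the marker genes were named after values were seen. Promoter and protein sequences were not used here.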

Additional observations from a re-analysis of the deposited data

Results flagged for a closer look

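Within groups of 4 fetuses, 3 values stood far from the other 3 of their group, out of 64 groups examined, and chance alone gives about 1 in 20. The effector mean of *MX1* and *MX2* was 0.29 in vehicle 4, against -0.13 to -0.08 in the other vehicle fetuses. *NFKBIA* was at 0.073 in vehicle 3, against -0.25 to -0.23 in the other controls. *PLAUR*, the gene most like *MX2*, was at -5.77 in estradiol sulfate fetus 2, against -5.49 to -5.43 in the other treated fetuses.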

How the results depend on the processing

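No probe passed the adjusted threshold in limma under any of the 18 alternatives (smallest adjusted p 0.127 to 0.767). *MX1*, *MX2* and *IRF3* kept their direction in all 18, with adjusted p from 0.420 to 0.909, 0.494 to 0.881 and 0.487 to 0.896. *IRF2* kept its direction in 16 of 17 (adjusted p 0.307 to 0.999) and came to -0.0032 with normexp and quantile normalization. With all 8 arrays required above background it was dropped. The filters, the trended prior and the replicate block change only the SE or the probes tested. They could not alter the direction of a gene that was kept, so these counts overstate how far direction was tried. Median scaling and the authors' log2 table are nearly the same scaling, with *MX1* at -0.58 in both. Leaving out 1 fetus at a time, the differences ran from -0.67 to -0.26 for *MX1*, -0.52 to -0.22 for *MX2*, 0.30 to 0.51 for *IRF2*, 0.20 to 0.39 for *IRF3* and -0.87 to -0.57 for effectors minus regulators, with 0 probes past the threshold throughout. *IRF2* was 0.22 with quantile normalization and 0.27 with cyclic loess, and *IRF3* 0.18 with median scaling. Probes at an unadjusted p under 0.05 were 733 higher and 344 lower, 345 and 753 with median scaling, 344 and 760 with the authors' log2 table, 396 and 297 with quantile normalization, and 904 and 1186 without the filter. With the replicate block 0 probes passed, and 1158 of 11748 had an unadjusted p under 0.05 in limma, 804 higher and 354 lower. Among those 1158 were *MX1* at -0.48 ± 0.12 (SE; adjusted p = 0.420 in limma) and *IRF2* at 0.41 ± 0.16 (SE; adjusted p = 0.493 in limma), but not *MX2* or *IRF3*. The same-number differences of *MX1* were -0.37, -0.34, -0.66 and -0.53. 3 of 4 treated fetuses correlated best with their own number, a hint from the data and not the design.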
